A study of Mus musculus with 12 samples.

Results

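The SR proteins, the heterogeneous nuclear ribonucleoproteins (hnRNPs) and the SF3A, SF3B and U2AF subunits mark exons and splice sites on new transcripts. The genes were chosen by symbol alone: protein-coding genes of the GENCODE M21 annotation whose symbol begins with Srsf, Hnrnp, Sf3a or Sf3b, with Tra2a, Tra2b, U2af1 and U2af2. The rule found 44 genes among the 37614 built from the files: 13 of SR and SR-like proteins, 20 of hnRNPs and 11 of SF3A, SF3B and U2AF subunits. Srsf12 did not pass the filter on low counts, so 43 of the 15711 tested genes belong to these families.

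RNA was sequenced in 12 mouse libraries, 3 in each of 4 groups. Haematopoietic stem cells (HSC) were sorted as Lin-Sca1+ckit+CD48-CD150+ cells, and preGM, early progenitors on the way to granulocytes and macrophages, as ckit+ cells without Sca1, CD150, CD105, CD41 or CD16/32. WT cells were of the strain C57bl/6 and MLL-ENL cells of the strain Col1a1-MLL/ENL, which carries the leukaemia fusion MLL-ENL. All 12 samples, WT as well as MLL-ENL, spent 48 h in culture with doxycycline (1 µg/ml), 10% serum, SCF, IL3 and G-CSF. No MLL-ENL library without doxycycline is among the 12, so fusion and strain cannot be told apart. Whether the 3 libraries of a group stem from different mice or cultures is not in the labels; a p-value therefore weighs a difference against the spread of these libraries alone, and that spread may be technical. Where 4 values or ranges are given in a row, the groups are in the order WT HSC, MLL-ENL HSC, WT preGM, MLL-ENL preGM.

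Splicing removes introns from precursor RNA. SR proteins bind exonic enhancers and recruit the splicing machinery through domains rich in arginine and serine, many hnRNPs bind the same transcripts and favour exon skipping, U2AF reads the 3′ splice site, and SF3A and SF3B belong to the U2 particle at the branch point. SF3B1, SRSF2 and U2AF1 are recurrently mutated in human myeloid neoplasms. Many of these genes limit their own output by splicing in a poison exon, whose stop codon sends the transcript to nonsense-mediated decay (NMD).

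The 4 groups had 14.5 to 18.2, 19.0 to 23.5, 34.7 to 44.5 and 38.5 to 50.3 megacounts of gene counts per library. HSC markers (10 genes) summed to 582 to 652, 871 to 955, 38.7 to 46.0 and 83.2 to 212 CPM (counts per megacount after TMM scaling, edgeR's correction for library composition), none of them at 0. Mature macrophage and neutrophil markers (8 genes) summed to 3570 to 5418 CPM in preGM of WT and 80.4 to 141 with MLL-ENL. Megakaryocyte and erythroid markers (10 genes) summed to 617 to 757 CPM in WT HSC and 186 to 230 in MLL-ENL HSC. The lower sum came mainly from Pf4 (means of 480 against 47.0 CPM) and Hbb-bt (94.2 against 19.8 CPM). Vwf was higher with MLL-ENL (42.4 against 85.4 CPM), and Itga2b (40.9 against 37.0 CPM) and Gata1 (13.5 against 13.9 CPM) differed little. Mast cell and basophil markers (6 genes) summed to 83.1 to 94.2, 98.5 to 106, 1452 to 2414 and 226 to 328 CPM. Cd48, whose product only the HSC gate excludes, had means of 111, 5.67, 363 and 565 CPM. Eng, Itga2b, Fcgr3 and Fcgr2b encode antigens that only the preGM gate excludes. Their means were 3.09, 3.82, 208 and 153 CPM in WT preGM and 5.42, 15.4, 36.0 and 141 CPM in MLL-ENL preGM. Mitochondrial genes took 5.40% to 5.92%, 6.32% to 6.70%, 2.71% to 4.09% and 1.83% to 3.12% of gene counts. The part of these differences in the results was not tested. WT preGM replicate 2 and MLL-ENL preGM replicate 1 stood apart from their groups. In the first, 18.5% of tested genes lay over 1.5-fold above and 19.3% over 1.5-fold below both other libraries, and in the second 23.7% and 20.97%, whereas no other library passed 10.7% in either direction. Of the 43 splicing factor genes, 7 were that far above and 6 below in the first library, and 6 and 7 in the second. Counts of calls are given with and without these 2 libraries, and for single genes only some such values are given.

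Most of the genes were abundant in every group. Per length (RPKM, averaged over the 12 libraries) the tested members lay between the 59.8th and the 98.8th percentile of all tested genes. Srsf7, a shuttling SR protein with a zinc knuckle, was the highest SR gene, with 283 ± 5.71, 231 ± 4.01, 433 ± 55.9 and 509 ± 51.7 RPKM (SD, n = 3). Srsf12 was the lowest, with 0 to 18 counts in a library. Hnrnpa1, which antagonises SR proteins at splice sites, led the hnRNPs with 554 ± 42.2, 424 ± 16.0, 476 ± 252 and 886 ± 41.2 RPKM (SD, n = 3). Hnrnpul2 was the lowest hnRNP, with group means of 3.88 to 7.82 RPKM. In the third family Sf3b6, a small SF3B subunit, had group means of 279 to 380 RPKM and Sf3a2 of 3.59 to 5.81 RPKM.

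The whole set took 1.20% to 1.34%, 1.17% to 1.25%, 0.810% to 1.24% and 1.33% to 1.61% of gene counts in the 4 groups. On the TMM scale the hnRNP genes summed to 6651 to 6888 CPM in WT HSC and 5270 to 5633 CPM in MLL-ENL HSC, and the SR genes to 2484 to 2613 and 2113 to 2309 CPM. On this scale both sums were lower in all 3 MLL-ENL HSC libraries than in any WT HSC library. As shares of gene counts the HSC groups overlapped, at 0.278% to 0.307% against 0.280% to 0.309% for the SR genes, 0.744% to 0.838% against 0.698% to 0.753% for the hnRNP genes and 0.181% to 0.193% against 0.175% to 0.192% for the third family. In preGM the hnRNP sum was 7246 to 9755 CPM in WT and 9880 to 10355 CPM with MLL-ENL, while the SR sums of 3169 to 3752 and 3203 to 4076 CPM overlapped. The order of the cell types in WT also turned with the scale: the mean shares in HSC and preGM were 0.296% and 0.255% for the SR, 0.795% and 0.626% for the hnRNP and 0.187% and 0.171% for the SF3A, SF3B and U2AF genes.

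**Figure D1:**
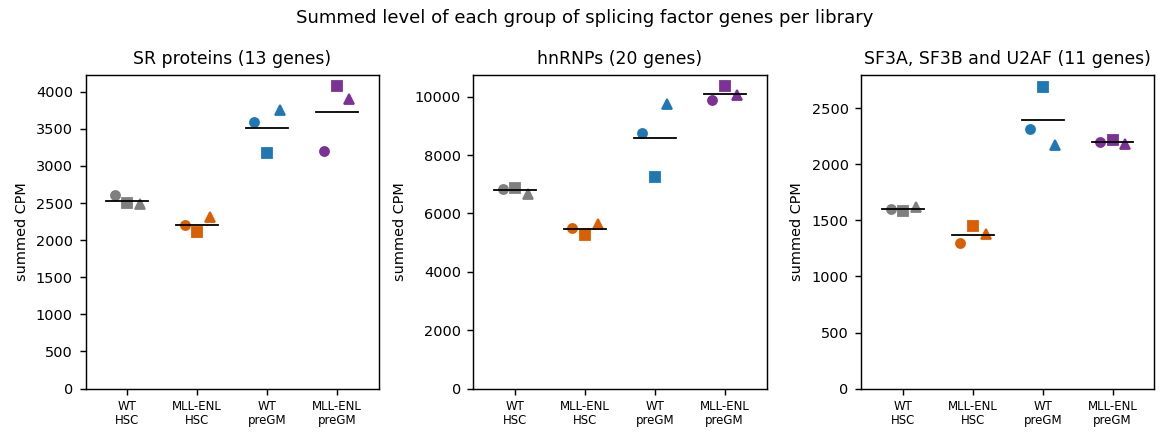
Summed level of the SR, hnRNP and SF3A, SF3B and U2AF genes in each library (y axis, counts per megacount after TMM scaling) by group; circles, squares and triangles are replicates 1, 2 and 3 and lines are means. In each panel the 3 MLL-ENL HSC libraries lie below the 3 WT HSC libraries, and the 6 preGM libraries lie above the 6 HSC libraries; as shares of gene counts the HSC groups overlap and mean WT preGM lies below mean WT HSC.

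In stem cells, most splicing factor genes were lower with MLL-ENL than in WT. In 29 of 43 genes all 3 MLL-ENL libraries lay below all 3 WT libraries, an order that 17% of all tested genes showed, and in 5 of 43 above, against 17.8% of all genes. The median log2 change was -0.31 against 0.02 over all genes, and 35 of 43 changes were negative. With library size as the only scaling, the median of all genes moved to 0.21. The order without overlap was then found for 13 lower and 5 higher genes, against 9.88% and 26.5% of all genes. The median of the set lay 0.33 below that of all genes under either scaling. These scalings differ by a factor per library that all its genes share, so the gap cannot test the choice of scaling.

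Single genes mostly did not pass the test. Only Hnrnpd fell (edgeR quasi-likelihood test, Benjamini-Hochberg adjusted p under 0.05 over all tested genes), where 0.929% of all genes were called lower and 3.19% higher (4.12% in either direction). The count turned on the 2 preGM libraries that stand apart, which enter the estimate of spread in a fit of all 12: without them 20 genes were called lower and 3 higher, against 11.1% and 10.2% of all genes. In a fit of the 6 HSC libraries alone 16 were called lower and 2 higher, against 8.69% and 8.99%, and all 18 were among the 23.

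**Figure D2:**
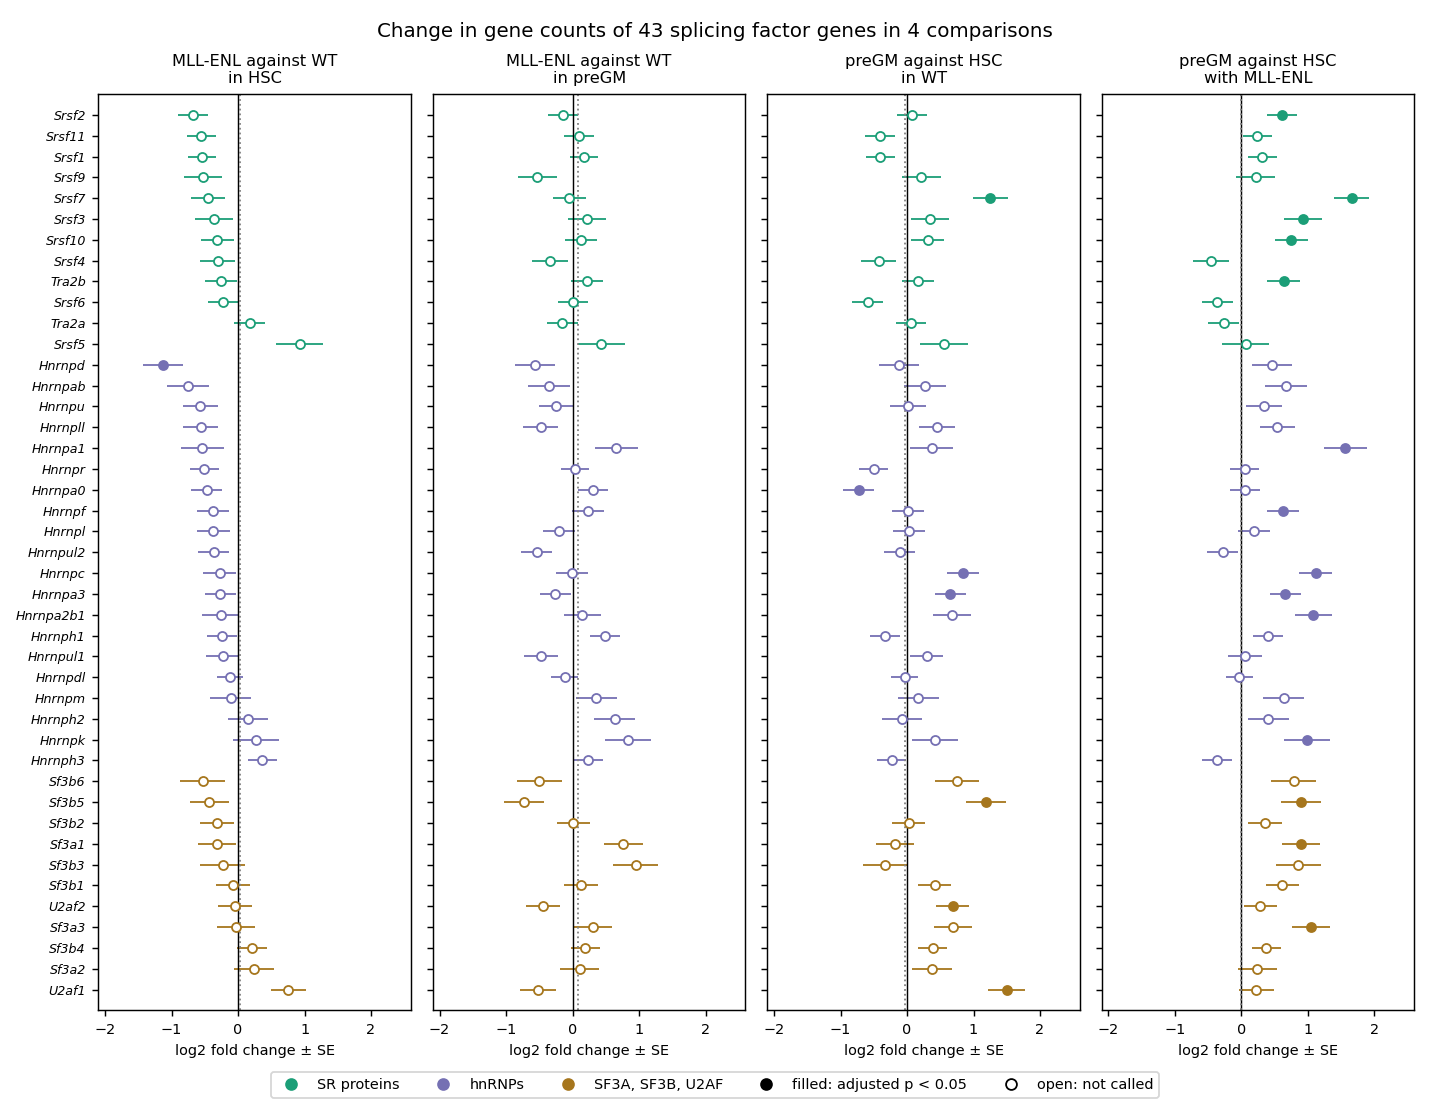
Log2 fold change with its SE (x axes) of the 43 tested splicing factor genes (rows, by family and by the change in HSC) in 4 comparisons; filled points passed an adjusted p of 0.05 and the dotted line is the median of all tested genes. In HSC 35 of 43 points lie left of 0, and in preGM against HSC with MLL-ENL 37 of 43 lie right of 0.

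Hnrnpd encodes AUF1, which binds AU-rich elements of messages. It had 233, 214 and 244 CPM in WT HSC against 108, 100.1 and 107 CPM with MLL-ENL, and every MLL-ENL value was under every WT value. The log2 change was -1.14 ± 0.30 (SE; edgeR adjusted p = 0.0454). The gene was called in 10 of 20 alternative settings, with adjusted p up to 0.172 and a change of -1.18 to -0.94; the call ended without any 1 of the 6 HSC libraries, and, among other settings, without replicate 1 or 3 of WT preGM or replicate 3 of MLL-ENL preGM.

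Of the 20 hnRNP genes 15 were lower and 2 higher without overlap, and the genes described next did not pass the test in the fit of all 12 libraries. Without the 2 preGM libraries 11 hnRNP genes were called lower and 1 higher, against 11.1% and 10.2% of all genes. Hnrnpa1 had 996, 964 and 910 CPM in WT HSC against 670, 643 and 666 CPM with MLL-ENL (log2 change -0.54 ± 0.32, edgeR adjusted p = 0.397, and 0.000613 without the 2 preGM libraries). Hnrnpu, a chromatin-associated scaffold hnRNP, had 748, 754 and 795 CPM against 529, 501 and 519 CPM (-0.57 ± 0.27, adjusted p = 0.270, and 0.000201 without the 2 libraries). In both genes the groups did not overlap. Hnrnpa2b1 had 1482, 1570 and 1493 against 1239, 1241 and 1314 CPM, and Hnrnpc, which covers uridine tracts, 421, 397 and 413 against 345, 339 and 330 CPM. Hnrnpl had 146, 153 and 153 against 127, 103 and 119 CPM, and its paralogue Hnrnpll, known for the switch of CD45 isoforms, 32.2, 37.7 and 45.5 against 26.9, 20.7 and 30.4 CPM. All 4 were lower without overlap. Hnrnpk, which binds runs of C, was higher without overlap, with 690, 715 and 497 against 759, 753 and 774 CPM (0.26 ± 0.35, adjusted p = 0.726).

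Of the 12 tested SR genes, 10 were lower without overlap and 1 was higher. None was called in the fit of all 12 libraries. Without the 2 preGM libraries 7 were called lower and 1 higher, against 11.1% and 10.2% of all genes. Srsf1, the founding member, had 225, 229 and 209 CPM in WT HSC against 156, 137 and 163 CPM with MLL-ENL (log2 change -0.54 ± 0.22, edgeR adjusted p = 0.185). Srsf2 had 204, 183 and 176 against 122, 102 and 128 CPM (-0.68 ± 0.23, adjusted p = 0.115), and shares 25.3% of its exon bases with another gene. Srsf7 had 593, 553 and 602 against 418, 432 and 431 CPM (-0.45 ± 0.25, adjusted p = 0.367). Srsf3 and Srsf6 had the same order, at 415 to 433 against 324 to 342 CPM and 163 to 174 against 133 to 154 CPM. Tra2b, an SR-like activator of exons, had 251 to 309 against 220 to 245 CPM, and its paralogue Tra2a overlapped, at 35.8 to 47.1 against 39.6 to 51.3 CPM. Srsf5 was the one higher gene, with 259, 271 and 225 against 468, 447 and 516 CPM (0.92 ± 0.36, adjusted p = 0.173, and 5.8e-05 without the 2 preGM libraries).

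The SF3A, SF3B and U2AF genes had a median log2 change of -0.08 in HSC, with 4 lower and 2 higher without overlap. Without the 2 preGM libraries 2 of these genes were called lower and 1 higher, against 11.1% and 10.2% of all genes. U2af1, which contacts the AG at the 3′ splice site, had 69.6, 52.4 and 57.5 CPM in WT HSC against 84.6, 113 and 105 CPM with MLL-ENL (0.76 ± 0.27, edgeR adjusted p = 0.135, and 0.00123 without the 2 preGM libraries). Its partner U2af2, which binds the polypyrimidine tract, had 33.8, 38.0 and 32.8 against 32.3, 35.4 and 33.8 CPM, and the groups overlapped. Sf3a1 was lower without overlap, at 61.2 to 83.5 against 56.9 to 60.5 CPM. Sf3b1, the largest SF3B subunit, had 229 to 267 against 228 to 260 CPM, with a 95% interval of the log2 change from -0.57 to 0.42. Sf3a3 had 125 to 162 against 126 to 174 CPM and Sf3b3 101 to 130 against 87.3 to 109 CPM, and both overlapped.

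**Figure D3:**
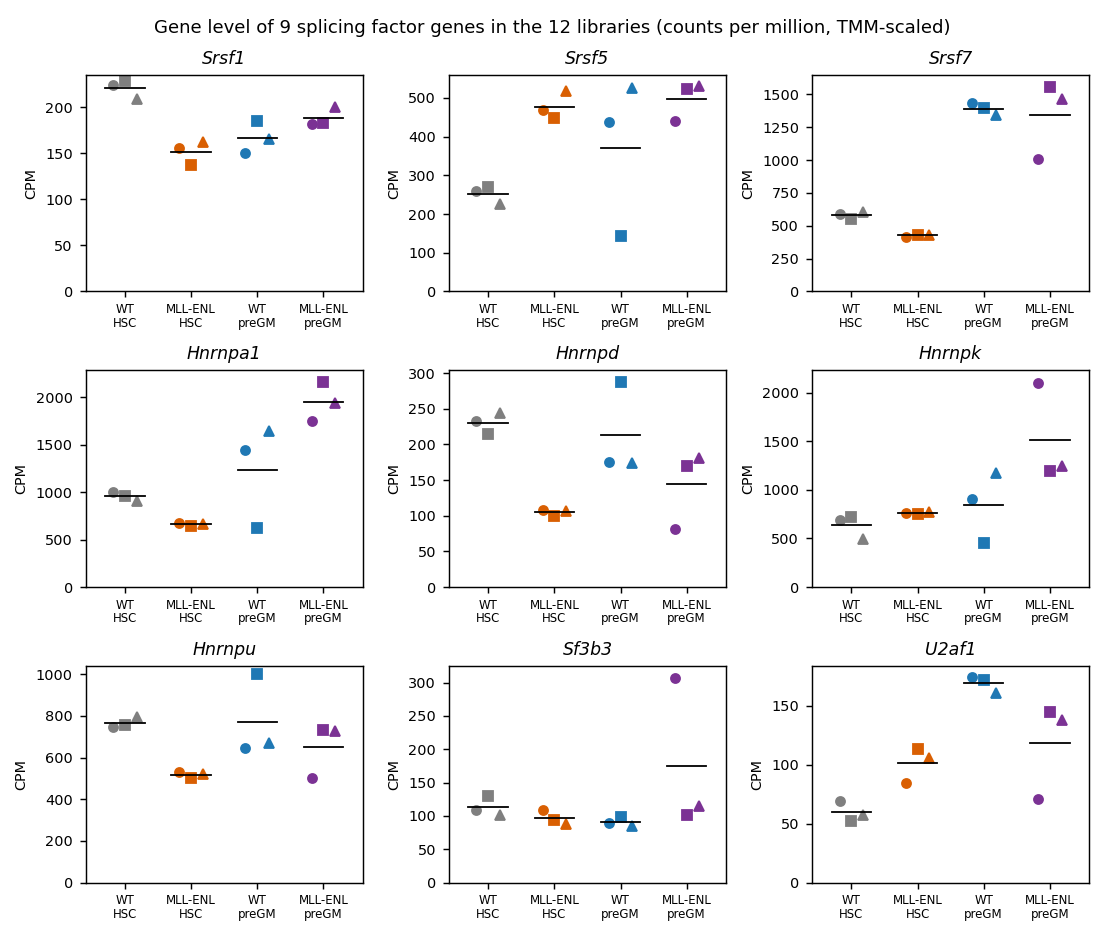
Level of 9 splicing factor genes (y axes, counts per megacount after TMM scaling, from 0) in the 12 libraries by group; circles, squares and triangles are replicates 1, 2 and 3 and lines are means. Srsf1, Srsf7, Hnrnpa1, Hnrnpd and Hnrnpu are lower and Srsf5 and U2af1 higher in all MLL-ENL HSC libraries than in WT HSC, and the square of WT preGM and the circle of MLL-ENL preGM lie apart for several genes.

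In preGM the same comparison gave no call among the 43 genes, where 3.7% of all genes were called higher and 3.07% lower (6.77% in either direction). At an unadjusted p under 0.05, 4 were higher and 2 lower in edgeR. DESeq2 called 0, where 3.98% of 24105 genes were called higher and 3.31% lower. With limma 0 were called, against 3.29% and 1.81% of all genes. Shares of all genes at an unadjusted p were not counted, here or below. The median log2 change was 0.04 against 0.08 over all genes. All MLL-ENL libraries were above all WT libraries in 5 of 43 genes, against 15.1% of all genes, and below in 3, against 12.8%. Hnrnpa1 was among the 5, with 1446, 616 and 1644 CPM in WT preGM against 1748, 2162 and 1939 CPM with MLL-ENL (0.66 ± 0.32, edgeR adjusted p = 0.229). Without the 2 libraries its change was 0.41 with adjusted p = 0.0266, and it was then the one gene called, where 3.52% of all genes were called higher and 3.62% lower.

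The largest changes in preGM came with high values in MLL-ENL preGM replicate 1. Sf3b3, a large SF3B subunit, had 88.7, 98.6 and 84.2 CPM in WT preGM against 308, 101 and 115 CPM with MLL-ENL (0.95 ± 0.34, edgeR adjusted p = 0.113). Sf3a1 had 59.8, 68.7 and 63.3 against 172, 76.6 and 76.6 CPM (0.76 ± 0.29, adjusted p = 0.128), and Hnrnpk 909, 451 and 1176 against 2100, 1190 and 1243 CPM (0.84 ± 0.35, adjusted p = 0.163). Without the 2 libraries these changes were 0.32, 0.31 and 0.22. Hnrnpd, the gene called in HSC, had 176, 288 and 174 against 81.6, 170 and 180 CPM (-0.56 ± 0.30, adjusted p = 0.266), and its change without the 2 libraries was 0.00. U2af1, with 174, 172 and 161 against 71.3, 145 and 138 CPM, was lower without overlap (-0.52 ± 0.27, adjusted p = 0.256). The other genes of the fixed set overlapped between the groups, with log2 changes of 0.17 for Srsf1, -0.15 for Srsf2, 0.22 for Srsf3, 0.01 for Srsf6, -0.05 for Srsf7, -0.16 for Tra2a and 0.22 for Tra2b. Those of Hnrnpa2b1, Hnrnpl, Hnrnpll and Hnrnpu were 0.15, -0.21, -0.48 and -0.25, and those of Sf3a3, Sf3b1 and U2af2 0.31, 0.12 and -0.44. For Hnrnpc the 95% interval ran from -0.48 to 0.47.

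Whether the response differed between the cell types was tested as an interaction, the log2 change in preGM minus that in HSC. No gene of the set passed in edgeR, where 1.08% of all genes were called higher and 2.06% lower (3.13% in either direction), while 31 of 43 values were positive with a median of 0.33 against 0.07. At an unadjusted p under 0.05, 6 were positive and 1 negative. DESeq2 called Srsf1 positive and U2af1 negative, against 1.61% and 2.75% of 24105 genes. U2af1 had the smallest p, at -1.27 ± 0.38 (edgeR adjusted p = 0.0861). Sf3a1 (1.08 ± 0.41), Hnrnpa1 (1.19 ± 0.45), Sf3b3 (1.18 ± 0.48) and Srsf1 (0.71 ± 0.30) followed among the fixed set, with adjusted p of 0.185 to 0.249. Without the 2 libraries 15 genes were called positive and 2 negative, against 6.73% and 5.44% of all genes. The genes furthest from 0 on each side were Hnrnpd at 1.14, Hnrnpab at 1.02, Hnrnpa0 at 1.00, Hnrnpa1 at 0.94 and Srsf1 at 0.82, with U2af1 at -0.999 and Srsf5 at -0.80.

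From WT HSC to WT preGM, 6 of the 43 genes rose and 1 fell, where 18.4% of all genes were called higher and 20.1% lower. The median log2 change was 0.17 against -0.03 over all genes, and 9 genes were higher and 7 lower without overlap, against 23.6% and 24.8% of all genes. Without the 2 libraries 16 were called higher and 8 lower, against 25.6% and 25.3%. The 7 calls became 18 without WT preGM replicate 2, 12 without MLL-ENL preGM replicate 1, 3 without WT HSC replicate 2, and 4 without WT HSC replicate 1 or 3 or WT preGM replicate 1. With library size as the only scaling 2 were called higher and 17 lower, against 7.57% and 39.1% of all genes. The median of all genes was then -0.73 and that of the set -0.52. Between preGM and HSC, changes are therefore relative to the median of all genes. Above it lay 29 of 43 with TMM and 30 with library size, scalings that shift all genes of a library alike. With limma on log2(RPKM + 0.1) 23 of 43 lay above it. There the median of the set lay 0.06 above that of all genes, against 0.19 with TMM. Fewer cells of a type and less RNA per cell cannot be told apart in bulk samples.

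The genes that rose in WT preGM came from all 3 families. U2af1 went from 52.4 to 69.6 CPM in WT HSC to 161 to 174 CPM in WT preGM, a log2 change of 1.496 ± 0.27 (edgeR adjusted p = 0.000509). Srsf7 went from 553 to 602 CPM to 1341 to 1432 CPM (1.25 ± 0.26, adjusted p = 0.00128). Both were called in 20 of 20 alternative settings, and with library size only their changes were 0.80 and 0.56. Sf3b5, a small SF3B subunit, rose from 171 to 224 CPM to 403, 599 and 331 CPM (1.19 ± 0.30, adjusted p = 0.00562), and Hnrnpc from 397 to 421 CPM to 797, 580 and 822 CPM (0.84 ± 0.24, adjusted p = 0.0127). Both calls were lost with library size only, where the changes were 0.46 and 0.16, and with limma, and that of Hnrnpc also without WT HSC replicate 2 or WT preGM replicate 1. Hnrnpa3 (0.65 ± 0.23) and U2af2 (0.68 ± 0.25) were called in 7 and 8 of 20 alternatives, and with library size as the only scaling both changes were -0.05. Hnrnpa0 fell from 115 to 119 CPM to 65.8, 76.9 and 69.7 CPM (-0.73 ± 0.23, adjusted p = 0.0196), a call lost without any 1 WT HSC library and without WT preGM replicate 1 or 3.

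In several other members WT preGM replicate 2 lay far below replicates 1 and 3, and the groups overlapped. Hnrnpa1 had 1446, 616 and 1644 CPM in WT preGM (log2 change 0.37 ± 0.32, and 0.70 without the 2 libraries), Srsf3 630, 317 and 682 CPM (0.35, and 0.63 without) and Srsf5 438, 144 and 526 CPM (0.55, and 0.94 without). Sf3a3 had 284, 140 and 301 CPM (0.70, and 0.98 without). Srsf6 and Srsf1 were lower without overlap, at 98.4, 134 and 104 CPM (-0.59 ± 0.23, edgeR adjusted p = 0.0542) and 150.3, 186 and 166 CPM (-0.40 ± 0.21). Sf3b3 was also lower without overlap (-0.33 ± 0.34) and Hnrnpa2b1 higher (0.68 ± 0.28, adjusted p = 0.0675). The remaining genes of the fixed set overlapped, with log2 changes of 0.08 for Srsf2, 0.06 for Tra2a, 0.16 for Tra2b, -0.12 for Hnrnpd, 0.41 for Hnrnpk, 0.03 for Hnrnpl, 0.45 for Hnrnpll, 0.01 for Hnrnpu, -0.18 for Sf3a1 and 0.41 for Sf3b1.

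From MLL-ENL HSC to MLL-ENL preGM, 14 of the 43 genes rose and 0 fell, where 20.4% of all genes were called higher and 21.1% lower. Of the log2 changes 37 were positive, with a median of 0.41 against 0.00. No gene was lower at an unadjusted p under 0.05, and DESeq2 called 17 higher and 0 lower. In 18 genes all preGM libraries were above all HSC libraries, against 25.9% of all genes, and in 3 below, against 28.9%. With library size as the only scaling 2 were called higher and 8 lower, against 7.75% and 35.1% of all genes. The median was then -0.17 against -0.56 over all genes. Under both scalings, which shift all genes of a library alike, 37 of 43 lay above the median of all genes. Without the 2 libraries 25 were called higher and 1 lower, against 25.1% and 26.5% of all genes. The 14 calls became 5 without MLL-ENL HSC replicate 1 or 3, 6 without replicate 2 and 9 without MLL-ENL preGM replicate 3. This comparison and the WT one share no library, and the test of their difference is the interaction above.

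Srsf7 had the largest change, from 418 to 432 CPM in MLL-ENL HSC to 1010, 1561 and 1468 CPM in MLL-ENL preGM (1.66 ± 0.26, edgeR adjusted p = 0.000145). Hnrnpa1 rose from 643 to 670 CPM to 1748, 2162 and 1939 CPM (1.56 ± 0.33, adjusted p = 0.00151). Both were called in 20 of 20 alternatives, and with library size only their changes were 1.05 and 0.98. Hnrnpc rose from 330 to 345 CPM to 659, 775 and 762 CPM (1.11 ± 0.24, adjusted p = 0.00207), and Hnrnpa2b1 from 1239 to 1314 CPM to 2270, 2974 and 2786 CPM (1.08 ± 0.28, adjusted p = 0.00643). With library size only neither was called, at 0.53 and 0.49, and with limma Hnrnpa2b1 was not. Sf3a3 (1.04 ± 0.29), Hnrnpk (0.99 ± 0.35), Srsf3 (0.93 ± 0.29), Sf3b5 (0.90 ± 0.30), Sf3a1 (0.89 ± 0.29) and Srsf10 (0.75 ± 0.25) rose with adjusted p of 0.00906 to 0.0325. All 6 calls were lost with limma and with library size only, where the changes were 0.47, 0.46, 0.33, 0.28, 0.39 and 0.22 in this order, and all but that of Sf3a3 were lost without any 1 MLL-ENL HSC library. Those of Srsf3 and Sf3b5 were also lost without MLL-ENL preGM replicate 2 or 3, and those of Hnrnpk and Sf3a1 without replicate 1. Without the 2 libraries Sf3a1 rose by 0.40 and Hnrnpk by 0.68. The other genes that rose were Hnrnpa3, Tra2b, Hnrnpf and Srsf2, with changes of 0.61 to 0.66. These calls were lost in 10, 13, 16 and 14 of 20 alternatives, and with library size only the changes were 0.06, 0.05, 0.07 and 0.04.

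U2af1 did not pass here, with 84.6, 113 and 105 CPM in MLL-ENL HSC and 71.3, 145 and 138 CPM in MLL-ENL preGM, where replicate 1 lay below the HSC group (0.22 ± 0.27, edgeR adjusted p = 0.525, and 0.0103 without the 2 libraries). Sf3b3 (0.85 ± 0.34, adjusted p = 0.0553) and Sf3b1 (0.61 ± 0.25, adjusted p = 0.0603) did not pass. Neither did Hnrnpd at 0.46, Hnrnpll at 0.54, Hnrnpu at 0.34, Srsf1 at 0.31, U2af2 at 0.28, Hnrnpl at 0.19, Tra2a at -0.27 and Srsf6 at -0.36.

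Lists of other splicing genes, 111 in all, give the context. Of 28 proteins of the snRNP core and of the U1, U2 and U4/U6.U5 particles, 15 rose and 0 fell from WT HSC to WT preGM (median log2 change 0.86, against -0.03 over all genes, of which 18.4% were called higher and 20.1% lower), and 17 rose and 1 fell with MLL-ENL (0.97, against 0.00, with 20.4% and 21.1% called). Among them were the Sm ring protein Snrpd3 at 1.54 ± 0.33 and the U2 protein Snrpa1 at 1.13 ± 0.29 in WT. In MLL-ENL against WT HSC the median of this list was -0.44 against 0.02, 17 of 28 were lower without overlap (17% of all genes), and the one call was Lsm4, a subunit of the Lsm ring, which rose from a mean of 16.5 to 63.1 CPM (1.94 ± 0.35, edgeR adjusted p = 0.00498). Lsm4 was also the one call of the interaction among the 111 genes, at -2.36 ± 0.48, where 1.08% of all genes were called higher and 2.06% lower.

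Of 21 genes of the Prp19 complex, the catalytic step and helicases, Ddx23, a helicase of the U5 particle, fell in MLL-ENL HSC (-1.61 ± 0.38, edgeR adjusted p = 0.0240), and 5 rose and 0 fell from HSC to preGM with MLL-ENL, where 20.4% of all genes were called higher. Of 9 genes for SR protein kinases and import, Clk1 and Clk2, kinases that release SR proteins from nuclear speckles, fell from WT HSC to WT preGM (-0.93 ± 0.25 and -0.55 ± 0.20), and Srpk1, which phosphorylates SR proteins in the cytoplasm, and Clk3 rose with MLL-ENL (1.22 ± 0.28 and 0.97 ± 0.33). Of 11 SR-related genes, Rnps1 rose from HSC to preGM in both genotypes (0.76 ± 0.26 and 1.02 ± 0.26). With MLL-ENL Luc7l also rose (0.73 ± 0.21) and Luc7l2 fell (-0.64 ± 0.21). Of 28 other regulators, 2 rose and 3 fell from WT HSC to WT preGM, and 3 rose and 5 fell with MLL-ENL. Rbfox2 (-2.33 ± 0.37 and -2.04 ± 0.36) and Tia1 (-1.31 ± 0.24 and -0.72 ± 0.24) fell in both genotypes. Taf15 and Raly rose in WT, and Nono, Syncrip and Tardbp rose with MLL-ENL. Tia1 was the one call in preGM between genotypes (0.96 ± 0.24). Of 14 NMD and exon junction genes, Smg9 rose in MLL-ENL HSC (1.32 ± 0.32). From HSC to preGM 2 rose and 1 fell in WT, and 4 rose and 1 fell with MLL-ENL. Magoh and Rbm8a, which pair in the exon junction complex, rose in both genotypes, while Smg6, an endonuclease of NMD, fell in both (-1.11 ± 0.25 in each). Eif4a3 and Smg8 rose with MLL-ENL. For all these lists, 18.4% of all genes were called higher and 20.1% lower in WT preGM against HSC, and 20.4% and 21.1% with MLL-ENL. Between genotypes 3.19% and 0.929% were called in HSC, and 3.7% and 3.07% in preGM.

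Exons absent from every protein-coding transcript were counted to follow the splicing of the genes themselves. The annotation holds 20 such exons in 12 of the genes, and 9 in 7 genes had enough reads. Each was tested relative to the counts of its gene, and its read density is given as a percentage of that of the flanking exons. The poison exons of Srsf3 (exon 4 of 7 of ENSMUST00000037776, 456 bases) and Tra2b (exon 2 of 10 of ENSMUST00000162413, 276 bases) are shown in part. The stretches run from the first base of the exon to the stop codon that ends the reading frame, in capitals, because that codon is what inclusion adds. They cover chr17:29039454-29039487 (plus strand) and chr16:22259181-22259261 (minus strand), given 5′ to 3′ (GRCm38).
Srsf3 exon 4: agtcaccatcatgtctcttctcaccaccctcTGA
Tra2b exon 2: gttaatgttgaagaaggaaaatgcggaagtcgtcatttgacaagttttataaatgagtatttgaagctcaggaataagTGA
In these transcripts the stop comes after 124 codons in Srsf3, with 3 exons to follow, and after 38 codons in Tra2b, with 8 exons to follow.

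The Tra2b exon was dense in reads. Relative to the flanking exons it had 133%, 131% and 149.8% in WT HSC against 102%, 64.3% and 109% with MLL-ENL, and 59.4%, 137% and 51.1% in WT preGM against 26.8%, 57.3% and 53.0% with MLL-ENL, from 320 to 731 reads in a library, while the flanking introns had 0.416% to 1.75%. A density above that of the flanking exons cannot be the share of transcripts that include the exon, so this measure is not inclusion. The first exon of the transcript is among the flanking exons here. On this measure MLL-ENL HSC lay below WT HSC and MLL-ENL preGM below MLL-ENL HSC without overlap. The log2 changes relative to the gene, -0.32 ± 0.49 and -1.20 ± 0.49, did not pass (edgeR adjusted p = 0.837 and 0.171). The Srsf3 exon had 0.647% to 2.49% in every library, and all groups overlapped. Exon 3 of ENSMUST00000030438 of Srsf10 had 26.9% to 39.2% in HSC of WT, 18.3% to 28.6% in those with MLL-ENL and 9.59% to 15.02% in the 6 preGM libraries, and its change from WT HSC to WT preGM was -1.18 ± 0.45 (adjusted p = 0.143). Exon 5 of ENSMUST00000126716 of Srsf11 had 27.2% to 44.6% in the 6 HSC and 9.02% to 20.3% in the 6 preGM libraries, from 4 to 21 reads.

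The one exon that changed was in Hnrnpd. Exon 7 of its NMD transcript ENSMUST00000171106 (chr5:99962098-99962204, minus strand, 107 bases) lies in the 3′ UTR. It had 5, 3 and 10 reads in WT HSC against 27, 16 and 29 with MLL-ENL, and 27, 33 and 30 in WT preGM against 31, 26 and 32 with MLL-ENL. This was 0.426% to 1.69% of the flanking exons in WT HSC, 4.51% to 6.62% in HSC with MLL-ENL and 3.44% to 5.82% in preGM, so WT HSC lay below all other libraries. The flanking introns had 0.900%, 3.03%, 0.403% and 0.912% in the 4 groups, so they too were higher in MLL-ENL HSC than in WT HSC. The part of unspliced RNA in the reads of this exon was not tested. Relative to the gene the exon rose from WT HSC to WT preGM by 1.85 ± 0.45 (edgeR adjusted p = 0.0333), where 5.45% of 587 such exons in all genes were called higher and 2.56% lower. In MLL-ENL against WT HSC the change was 2.53 ± 0.46 with adjusted p = 0.0595, and 0% of the 587 exons were called; among the members' 9 exons 1 had an unadjusted p under 0.05. The call in WT was lost at a minimum count of 30 and without the 2 libraries (adjusted p = 0.0886). Whether the exon and the Hnrnpd level are linked was not tested.

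**Figure D4:**
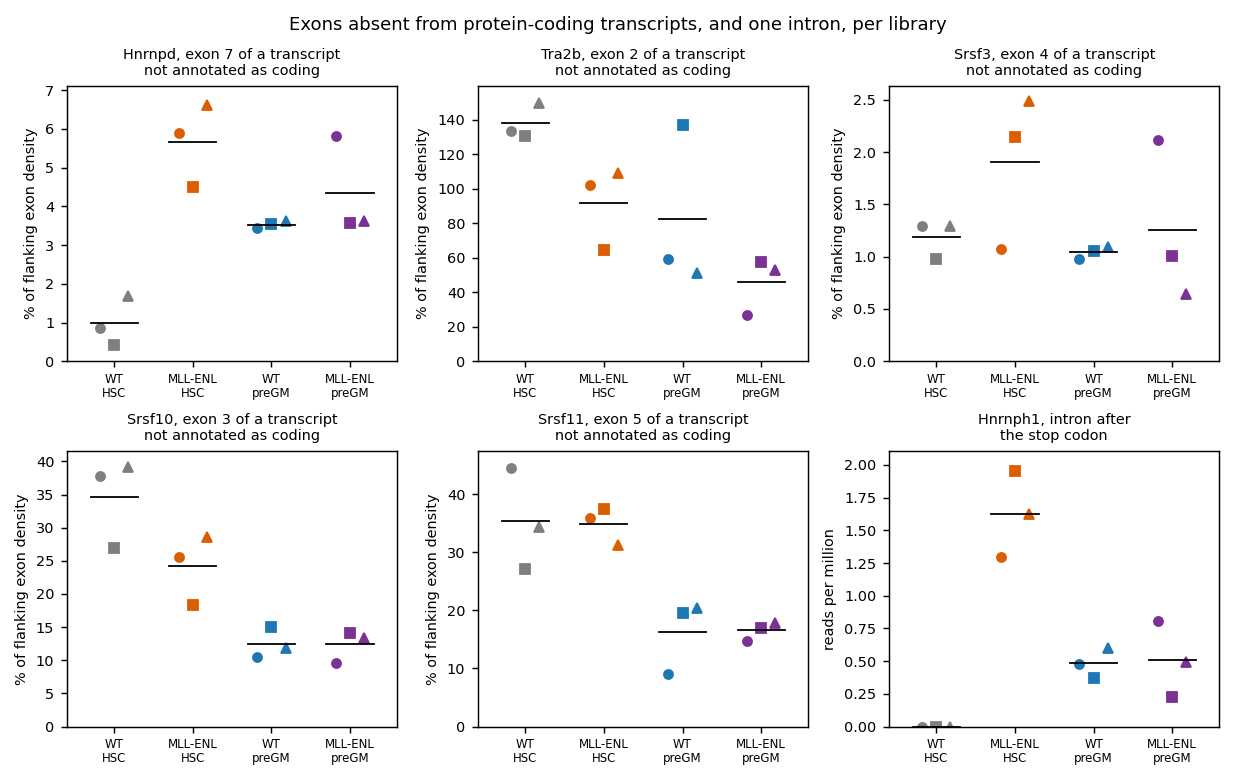
Read density of 5 exons absent from protein-coding transcripts (% of the flanking exons) and TMM-scaled reads per megacount in the Hnrnph1 intron after the stop codon (y axes, from 0) in the 12 libraries by group; circles, squares and triangles are replicates 1, 2 and 3 and lines are means. The Hnrnpd exon and the Hnrnph1 intron are lowest in WT HSC, and the Srsf10 and Srsf11 exons are lower in all preGM than in all HSC libraries.

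Introns could be tested in 24 of the genes. Whole libraries differed here: introns took 2.05 to 2.21, 2.53 to 3.18, 0.690 to 1.34 and 0.829 to 1.85 counts per 100 gene counts in the 4 groups, and the part of this in the following values was not tested. Relative to exons, 1 of 24 genes rose with MLL-ENL in HSC, where 0.13% of 6134 genes were called higher and 0.0163% lower, and the median was 0.46 against 0.14. The gene was Hnrnph1, whose product binds runs of G, with a log2 change of 2.89 ± 0.50 (edgeR adjusted p = 0.0227). The call held without the 2 preGM libraries. It was lost when introns were scaled by gene counts and when any 1 of 4 HSC libraries (replicates 1 and 3 of WT, 2 and 3 of MLL-ENL) was left out. In preGM between genotypes no ratio of the set passed (0.0326% of all genes in each direction, 0.0652% in either; 0 of 24 at an unadjusted p under 0.05). None passed in WT preGM against HSC (0.277% and 0.212%; 3 higher and 1 lower at an unadjusted p under 0.05) or with MLL-ENL (0.0978% and 0.114%; 0 and 3).

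Most Hnrnph1 intron reads of MLL-ENL HSC came from 1 intron of 586 bases that begins right after the stop codon (chr11:50385191-50385776, plus strand, intron 14 of ENSMUST00000109142, in the 3′ UTR). It held 0, 0 and 0 reads in WT HSC against 41, 49 and 46 with MLL-ENL, and 16, 8 and 21 in WT preGM against 43, 7 and 18 with MLL-ENL. Against a floor of 3 reads over the WT HSC group, the level per megacount was at least 29.99-fold higher in MLL-ENL HSC. Its density relative to the Hnrnph1 exons was 7.2% in MLL-ENL HSC, against 2.34% and 1.92% in the preGM groups. The Hnrnph1 gene level was 242 to 259 CPM in WT HSC and 187 to 234 CPM in MLL-ENL HSC.

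Intron counts alone gave 1 call in each comparison of preGM with HSC. U2af2 rose in WT (1.995 ± 0.60, edgeR adjusted p = 0.0254; 7.13% of 6286 genes higher and 7.33% lower), from 3, 38 and 8 reads to 48, 58 and 53. Hnrnpa1 rose with MLL-ENL (2.24 ± 0.58, adjusted p = 0.0100; 5.52% higher and 6.81% lower), from 23, 18 and 8 reads to 150, 41 and 33. These reads are not scaled for depth, and the preGM libraries had more gene counts than the HSC libraries. The changes are on a TMM scale of introns alone. Relative to exon density, the U2af2 introns had 0.432% in WT HSC and 0.578% in WT preGM. Those of Hnrnpa1 had 0.0642% in MLL-ENL HSC and 0.0718% in MLL-ENL preGM. The Hnrnpa1 call was lost without MLL-ENL preGM replicate 1 or MLL-ENL HSC replicate 3, and the U2af2 call without WT HSC replicate 1 or 3 or WT preGM replicate 2 or 3. Between genotypes no gene of the 24 was called in HSC (0.684% higher and 0.366% lower, 1.05% in either direction; 1 higher at an unadjusted p under 0.05) or in preGM (0.891% and 0.541%, 1.43% in either direction; 0 at an unadjusted p under 0.05).

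The promoters of Hnrnpd, the gene called in HSC, and of Srsf7 and Hnrnpa1, the largest changes between the cell types with MLL-ENL, are shown for reference. They are from RefSeq (GRCm38.p6) and run from 250 bases before to 50 after the start, 5′ to 3′ on the strand of the gene: chr5:99978889-99979188 (minus), chr17:80207256-80207555 (minus) and chr15:103240147-103240446 (plus). Capitals mark matches on either strand: the GC box is searched as GGGCGG, the ETS word as CCGGAAG, the CCAAT and TATA boxes as CCAAT and TATAAA, and the E box as CACGTG; matches may overlap.
Hnrnpd: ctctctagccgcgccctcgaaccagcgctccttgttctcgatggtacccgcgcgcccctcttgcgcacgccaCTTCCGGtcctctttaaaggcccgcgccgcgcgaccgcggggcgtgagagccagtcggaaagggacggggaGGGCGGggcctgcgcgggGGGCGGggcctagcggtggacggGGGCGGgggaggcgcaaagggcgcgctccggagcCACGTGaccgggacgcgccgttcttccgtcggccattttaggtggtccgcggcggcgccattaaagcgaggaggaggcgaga
Srsf7: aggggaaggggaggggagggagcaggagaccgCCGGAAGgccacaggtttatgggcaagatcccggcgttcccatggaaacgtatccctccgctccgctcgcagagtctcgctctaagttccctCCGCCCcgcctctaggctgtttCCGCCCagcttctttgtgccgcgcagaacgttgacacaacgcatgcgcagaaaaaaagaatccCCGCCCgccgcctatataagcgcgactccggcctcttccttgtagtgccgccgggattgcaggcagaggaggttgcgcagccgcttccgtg
Hnrnpa1: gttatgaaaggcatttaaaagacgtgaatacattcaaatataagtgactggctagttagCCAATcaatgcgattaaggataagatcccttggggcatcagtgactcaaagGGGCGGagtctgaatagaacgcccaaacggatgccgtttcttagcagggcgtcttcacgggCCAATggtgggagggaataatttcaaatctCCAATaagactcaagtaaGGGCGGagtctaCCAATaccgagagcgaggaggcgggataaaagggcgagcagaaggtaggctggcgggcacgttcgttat
The Hnrnpa1 window holds 4 CCAAT matches, and the windows of Hnrnpd and Srsf7 hold 3 GC boxes each. Of the 44 genes 39 had an entry. The GC box was found in 31 of 39 (79.5%), against 38.2% of all 27025 symbols, the ETS word in 12 (30.8% against 9.93%), CCAAT in 21 (53.8% against 41.1%), the TATA box in 5 (12.8% against 15.7%) and the E box in 5 (12.8% against 8.09%). The median GC content was 63.3%, against 52.7% over all 32851 starts. The symbols and starts compared were not limited to genes tested here, whereas most members were abundant. Promoters of other genes of like abundance were not compared.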

How the data were processed

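The authors deposited whole-number read counts per exon and intron part of each transcript, beside RPKM values, per the file headers; only the counts were used, and RPKM was recomputed from them. The submitters' processing notes name HTSeq, edgeR, Bowtie2 2.1.0 and TopHat2 2.0.8; no source used here states the build, and coordinates matched GRCm38. Per the labels' protocols, libraries were made with a SMARTer low input kit, for which no strand is stated, and no molecular identifiers are stated; SEs and intervals include the spread between libraries, and the floor of 3 counts covers counting error only.

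Of 93615 transcripts, 89664 (95.8%) were matched to GENCODE M21 by identifier and 2890 by exon overlap; 1061 were left out (1.24% to 3.30% of gene counts). Non-overlapping exon counts were summed per gene. edgeR 4.0.16 (R 4.3.3) was fitted over all 12 libraries with TMM, filterByExpr (minimum count 10), group means and robust quasi-likelihood, and p-values were adjusted by Benjamini-Hochberg over all genes tested; SE is the change over the square root of F. Ratios were tested as an interaction with library as a block. The fits were also run on simulated counts with the same spread in every library. Those runs held no library that stands apart, so they cannot show how the fits behave with the preGM libraries that do. Alternatives were DESeq2 1.42.0, limma 3.58.1 on log2(RPKM + 0.1), other scalings, filters and samples, and leaving out each library.

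Named are members past the threshold (up to 10 per direction by change), a fixed set by family (Srsf1, Srsf2, Srsf3, Srsf6, Srsf7, Tra2a, Tra2b, Hnrnpa1, Hnrnpa2b1, Hnrnpc, Hnrnpd, Hnrnpk, Hnrnpl, Hnrnpll, Hnrnpu, Sf3a1, Sf3a3, Sf3b1, Sf3b3, U2af1, U2af2), introns and exons past the threshold, and the highest and lowest RPKM per family; Srsf5, Hnrnpab, Srsf10 and Srsf11 are named beyond these after their values were seen, as are the genes named from the other lists. The members and lists were chosen with earlier results of these data known. 6 members share over 10% of their exon bases with another gene.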

Additional observations from a re-analysis of the deposited data

How the results depend on the processing

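For single genes, introns and exons, 3977 of 4321 alternative values kept their direction and side of the threshold, 169 passed it only under the alternative, 159 lost it and 16 changed sign. The number of splicing factor genes called in HSC (1) was 5 with DESeq2, 2 with library size only and 2 with limma. Of all genes, 3.72% were called higher and 1.88% lower with DESeq2. These shares were 3.7% and 0.509% with library size only, and 6.08% and 0.974% with limma. The number was 18 with only the groups compared and 23 without WT preGM replicate 2 and MLL-ENL preGM replicate 1. It was 0 to 3 when each library was left out. In preGM (0) it was 1 without the 2 libraries and 0 to 1 without single libraries; for the interaction (0) 2 with DESeq2, 17 without the 2 and 0 to 1. For WT preGM against HSC (7) it was 12 with DESeq2, 19 with library size only and 18 with limma (2 higher and 16 lower). Of all genes, 14% were called higher and 13.9% lower with DESeq2. These shares were 7.57% and 39.1% with library size only, and 8.17% and 35.2% with limma. The number was 24 without the 2 and 3 to 18 without single libraries, the highest without WT preGM replicate 2. With MLL-ENL (14) it was 8 with limma (3 higher and 5 lower, against 8.32% and 33.7% of all genes), 26 without the 2 and 5 to 17. Intron calls were 0 to 1 without single libraries in HSC; in WT (1) 2 when scaled by gene counts, 3 with introns under retained-intron transcripts kept (chosen after seeing the data), 0 without the 2 and 0 to 3; with MLL-ENL (1) 0 when scaled by gene counts, 0 without the 2 and 0 to 1. Ratio calls were, in HSC (1), 0 when scaled by gene counts and 0 to 1; in WT (0) 1 with those introns kept and 0 to 1; with MLL-ENL (0) 1 without the 2. Exon calls were, in HSC (0), 1 with TMM of each kind apart and 0 to 1; in WT (1) 0 at a minimum count of 30, 0 without the 2 and 0 to 1; with MLL-ENL (0) 0 to 1. Sign changes were all between preGM and HSC. With library size only, they were Hnrnpa0 -0.55 and Hnrnpul1 -0.55 with MLL-ENL, and in WT Hnrnpl -0.71, Sf3b2 -0.69, Tra2a -0.66, U2af2 -0.0537, Srsf2 -0.64, Hnrnpu -0.72, Hnrnpf -0.68 and Hnrnpa3 -0.0547. With limma they were in WT Hnrnpl -0.66, Tra2a -0.59, U2af2 -0.0056, Srsf2 -0.59, Hnrnpu -0.67 and Hnrnpf -0.64; the cause of these changes was not tested. Same-numbered libraries did not deviate together (18 pairs, r from -0.17 to 0.11, 2 over 0.1, the best match in 8 of 36). With so few libraries per group, some of which stand apart, this cannot exclude a shared day or batch. With the replicate block the calls were 0 in HSC (Hnrnpd edgeR adjusted p = 0.0631), 0 in preGM, 0 for the interaction, 6 in WT and 10 with MLL-ENL. For introns they were 0, 0, 0, 1 and 1. Exons with few reads limit the precision of the exon and intron results.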

Other observations

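Among introns that lie under annotated retained-intron transcripts and were left out of the intron tests, 2 are given here after their values were seen, with no test. An Srsf7 intron of 1377 bases (chr17:80202745-80204121, minus strand) held 70, 177 and 42 reads in WT HSC, 217, 122 and 236 in MLL-ENL HSC, 76, 25 and 88 in WT preGM and 769, 142 and 143 in MLL-ENL preGM. Its density was 1.47%, 2.62%, 0.250% and 1.13% of that of the Srsf7 exons in these groups, and the highest count was in MLL-ENL preGM replicate 1. A U2af2 intron of 647 bases (chr7:5068797-5069443, plus strand) held 27, 40 and 22 reads in WT HSC, 89, 117 and 89 in MLL-ENL HSC, 118, 70 and 86 in WT preGM and 66, 63 and 62 in MLL-ENL preGM. Its density was 15.8%, 36.0%, 20.01% and 14.2% of that of the U2af2 exons, while the U2af2 gene level overlapped between WT and MLL-ENL HSC.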
